A study of Mus musculus with 3 samples.

Results

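Ciliated ependymal cells are the multiciliated cells that line the ventricles of the brain, here the third ventricle and its surroundings in the mouse hypothalamus. They were chosen from single-cell RNA counts by the UMIs (unique molecular identifiers, 1 per captured transcript) of 13 genes. A barcode with at least 500 UMIs and at most 20% mitochondrial UMIs was taken when at least 4 of the 7 genes Ccdc153, Tmem212, Foxj1, Cfap126, Tekt1, Dynlrb2 and Ak7 were detected. At least 2 of the 4 genes Ccdc153, Tmem212, Cfap126 and Tekt1 also had to reach 2 UMIs, and none of the 6 genes Cldn5, Kcnj8, Myh11, P2ry12, Mog and Dcn, which mark vessel, immune, myelin and connective tissue cells, could reach 2. The rule took 2653 of 37066 barcodes, or of the 36467 within the limits on UMIs and mitochondrial share.

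The study asked whether heat exposure leaves lasting differences in the cells of the hypothalamus of 8-week-old male mice. HS mice were heat-exposed, QS mice came from the recovery that followed it, and PF mice were a control matched for food intake. Each group had 1 library of cells from collagenase II digestion, and the sources used here do not give the number of mice in it, the length of recovery or the time of day. RT mice were not analysed here.

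Ependymal cilia beat together and move cerebrospinal fluid along the ventricle wall. Each motile cilium holds an axoneme of microtubule doublets around a central pair, with inner and outer dynein arms as motors, radial spokes and a nexin-dynein regulatory complex that coordinate them, and intraflagellar transport that builds it. Foxj1 and the RFX factors switch on the genes of this machinery. Ependymal cells also carry water channels and transporters and lie next to tanycytes, the non-ciliated or sparsely ciliated cells of the ventricle floor.

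With 1 library a group the spread between animals is unknown, so no test was made. Exact 95% intervals stand beside the ratios and cover counting error only. Statements of higher and lower hold for these 3 libraries and not for the conditions. The UMIs of all members of a library were summed and given as CPM, counts scaled to the same total in each library. A gene was called higher or lower when its CPM ratio was at least 1.5 either way, and the interval left out 1. The library with the higher level had to reach 20 CPM and 30 UMIs, and the other 1 UMI. Genes counted as measured passed the minimum of 20 CPM and 30 UMIs, which a gene can do through the higher library alone, so counts and medians over measured genes are descriptions. HS over PF and QS over PF share PF, and a peculiarity of PF would enter both.

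The rule took 959 cells of 12305 in HS, 851 of 11517 in QS and 843 of 12645 in PF. These were 7.79% (7.33 to 8.28) of barcodes in HS, 7.39% (6.92 to 7.88) in QS and 6.67% (6.24 to 7.12) in PF. The share in HS was 1.17 times (1.06 to 1.28) that in PF, and the share in QS 1.11 times (1.01 to 1.22). The QS over PF ratio was 1.09 (0.992 to 1.204) with at least 1000 UMIs per barcode, 1.01 (0.916 to 1.11) with every barcode thinned to 3000 UMIs, and 1.62 (1.41 to 1.85) when 1 UMI of an exclusion gene sufficed to leave a barcode out. It was 1.02 (0.943 to 1.11) with the barcodes that an exclusion gene had left out taken in. The ratio thus lay between 1.01 and 1.62 over these settings. Both marker conditions were met by 1301, 1092 and 1170 barcodes in HS, QS and PF, of which an exclusion gene left out 342, 241 and 327, with Cldn5 among the reasons in 259, 177 and 228.

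At the edge of the rule, 28 cells in HS, 22 in QS and 22 in PF had exactly 4 of the 7 genes, with median UMIs of 4327.5, 3408 and 2124. Just outside it, 15, 21 and 23 barcodes had 3 of the 7, with median UMIs of 2304, 2407 and 1982. All 7 genes were detected in 78.7% of members in HS, 80.0% in QS and 74.4% in PF.

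Members summed to 11534195 UMIs in HS, 10330914 in QS and 8828179 in PF, out of library totals of 103891747, 93295920 and 100727912. A member had a median of 9861 UMIs and 4160 genes in HS, 10575 UMIs and 4301 genes in QS, and 9265 UMIs and 3984 genes in PF, with 4.24%, 3.76% and 4.31% mitochondrial UMIs. Scrublet, a doublet caller, marked 2.40% of members in HS, 2.94% in QS and 3.44% in PF, and these were kept. HS and PF shared 37 barcodes, QS and PF 51 and QS and HS 40, and 1 barcode was a member in both QS and HS.

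The 7 genes that chose the cells had similar levels in the 3 libraries, which is a description and no finding. Ccdc153, a coiled-coil protein of motile cilia (chr9:44240676-44247306 on mm10), stood at 1613 CPM in HS, 1758 CPM in QS and 1811 CPM in PF. Its pooled level was 115 times the highest among tanycytes, astrocytes, endothelial cells, microglia and oligodendrocytes taken from the same libraries by their own markers. Barcodes of those classes also had to have fewer than 4 of the 7 genes detected. Levels of the 7 genes relative to them were thus partly set by that limit. Foxj1, the transcription factor of motile cilia, had 463, 534 and 477 CPM in HS, QS and PF, a pooled level 13.5 times that of the other classes. Tekt1, a filament protein inside the doublets, had 257 CPM in HS, 264 CPM in QS and 257 CPM in PF. None of the 7 was called in any comparison. The summed level of the 7 genes was 6573 CPM in HS, 6733 CPM in QS and 7051 CPM in PF, and endothelial cells held 0.965%, 0.831% and 0.916% of that. Tanycytes held 3.76%, 3.41% and 4.46% of it. Over all genes measured, the background for every count that follows, 0.64% of 8275 were called higher and 0.447% lower for HS over PF. For QS over PF 0.888% of 8219 were called higher and 0.718% lower, and for QS over HS 1.24% of 8274 and 1.09%. The median log2 ratio over all of these genes was 0.01 for HS over PF, -0.01 for QS over PF and -0.02 for QS over HS.

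Other genes of motile cilia stood far above the other classes in the same cells. This is a description, since the cells were chosen by genes of this kind and the other classes limited in them. The gene with the highest pooled level relative to the other classes was Dthd1 (180-fold), followed by Frmpd2 (136-fold), Fam216b (134-fold) and Sntn (117-fold), which encodes sentan of the ciliary tip. Sntn had 305 CPM in HS, 308 CPM in QS and 301 CPM in PF. Spag17, a central pair protein, was 105-fold above the other classes, with 449, 405 and 457 CPM in HS, QS and PF. Listed markers of choroid plexus, the other ciliated epithelium of the ventricles, were mostly low or absent. Kcne2, a defining marker of it, was at 0. Pooled levels were 0.0977 CPM for Ttr and for Kl, 0.130 for Slc4a5 and 0.912 for Prlr. Otx2 had 10.6 CPM pooled and Clic6 24.0 CPM. Folr1 had 57.4 CPM in HS, 65.2 CPM in QS and 63.9 CPM in PF. Its pooled level was 33.9 times that of the highest other class. Tanycyte markers summed to 364 CPM in HS, 312 CPM in QS and 273 CPM in PF, or 9.41%, 8.62% and 7.24% of the level in tanycytes. Of the 3 measured, Col23a1, a membrane collagen, was called higher in HS, with 110 CPM in HS, 72.9 CPM in QS and 66.4 CPM in PF.

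The axoneme lists showed few called genes. At the background shares given above, lists of this size hold few called genes or none, so these counts do not set them apart. Among 10 measured outer dynein arm genes, none was called in any comparison, and the median log2 ratio was 0.02 for HS over PF and -0.05 for QS over PF. Of 13 inner dynein arm genes none was called either, with medians of 0.02 for HS over PF and -0.14 for QS over PF. All 13 stood below a ratio of 1 in QS over PF. Dnah2, an inner arm heavy chain, had 336 CPM in HS, 247 CPM in QS and 318 CPM in PF, a QS over PF ratio of 0.778.

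Dnah12, another inner arm heavy chain, had 1016 CPM in HS, 903 CPM in QS and 1008 CPM in PF. Of 16 measured central pair genes none was called and 1 stood above a ratio of 1 in QS over PF, with a median of -0.17, against 0.00 for HS over PF. Spag16, which encodes a central pair protein, had 928, 753 and 896 CPM in HS, QS and PF. These ratios are small beside the 1.5-fold limit. In the promoters of the axoneme lists together, 3 of 83 held the FOXJ1 core GTAAACA and 3 of 83 the RFX X-box (GTTNCCNNGGNAAC), against 4.05% and 0.529% of all promoters, with either strand counted.

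Radial spoke genes (16 measured) had medians of -0.03 for HS over PF and -0.07 for QS over PF, intraflagellar transport and BBSome genes (31 measured) -0.05 and -0.09, and basal body genes (16 measured) -0.04 and -0.08, with none called. Dynein assembly factors (13 measured) had medians of -0.06 and -0.13, and the nexin-dynein regulatory complex (9 measured) -0.09 and -0.10. Microtubule inner proteins and tektins gave 1 gene in each comparison with PF. Tekt3 had 14.6 CPM in HS, 15.7 CPM in QS and 22.9 CPM in PF, an HS over PF ratio of 0.637, and was called lower. Tekt2 had 16.3 CPM in HS, 22.1 CPM in QS and 14.5 CPM in PF, a QS over PF ratio of 1.52, and was called higher.

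Among regulators of ciliogenesis (12 measured), Ccno, which acts in centriole amplification, had 22.4 CPM in HS, 35.8 CPM in QS and 27.4 CPM in PF. Its QS over HS ratio of 1.60 was called.

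Transporters, channels and junction genes had medians of 0.04 for HS over PF and 0.06 for QS over PF. Slc15a2, a peptide transporter, had 47.9, 36.3 and 58.1 CPM in HS, QS and PF and was called lower in QS than in PF, at a ratio of 0.625. Aqp4, the water channel, stood at 556 CPM in HS, 551 CPM in QS and 532 CPM in PF. Genes for secreted and lipid-handling proteins, such as Apoe (5440 CPM in HS, 5900 CPM in QS and 5020 CPM in PF), gave none called in HS over PF or QS over PF.

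Interferon-stimulated genes, the antiviral and signalling genes switched on by type I interferon, stood above a ratio of 1 in QS over PF for nearly all measured members of the list. Of 36 genes listed 25 were measured, 12 were called higher (background 0.888%) and none lower, and 24 had a ratio above 1. The median log2 ratio was 0.58 for QS over PF, against 0.01 for HS over PF, in which 19 were measured and none was called. Some of the 25, such as Usp18, passed the level minimum through QS alone, so the medians cover different genes. With the barcodes that an exclusion gene had left out taken in, the QS over PF median was 0.33, with 10 of 30 called higher and 1 lower. The list was chosen with earlier results of these data known, so its direction is not independent support.

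Ifit3 (ENSMUSG00000074896, chr19:34583531-34588731), which encodes an antiviral protein, had 42.7 CPM in HS, 140 CPM in QS and 43.8 CPM in PF. Its QS over PF ratio was 3.20 (2.86 to 3.59). Isg15 (ENSMUSG00000035692, chr4:156199424-156200818), a ubiquitin-like modifier, had 22.7, 88.9 and 29.1 CPM in HS, QS and PF, at a ratio of 3.05 (2.66 to 3.52). Cxcl10 (chr5:92346638-92348889), a chemokine that attracts T cells, had 59.7 CPM in HS, 135 CPM in QS and 46.2 CPM in PF, a ratio of 2.93 (2.62 to 3.28). After members were thinned, Cxcl10 was detected in 7.60% of them in HS, 13.6% in QS and 8.06% in PF. Its UMIs thus came from a minority of the thinned members in every library. QS stood well above both other libraries in all 3 genes. HS and PF were close for Ifit3, while Isg15 was lower in HS than in PF and Cxcl10 higher.

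The other 9 genes called had QS over PF ratios from 1.52 (Gbp3) to 2.98 (Ifit3b). Ifit1, which encodes an RNA-binding antiviral protein, had 26.4 CPM in HS, 64.5 CPM in QS and 23.7 CPM in PF. Bst2, or tetherin, which holds budding viruses at the membrane, had 49.2 CPM in HS, 92.8 CPM in QS and 49.95 CPM in PF. In both genes QS was above HS and PF, which were close. Usp18, which removes ISG15 from proteins, had 15.7, 29.6 and 14.7 CPM in HS, QS and PF. Ifitm3, a membrane restriction factor, was not called, with 626 CPM in HS, 718 CPM in QS and 779 CPM in PF. Ifit3 and Ifit3b are near-identical neighbours, so the division of counts between them is uncertain.

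The promoters of these genes are shown because the interferon-stimulated response element, the promoter element of interferon signalling, was found in most. They are RefSeq sequences of GRCm38.p6, 250 bases before to 50 after the gene's start, on the gene's own strand, with matches to GAAANNGAAA on either strand in capitals. Ifit3 (chr19:34583279-34583578, plus strand) held 2 matches, Isg15 (chr4:156200769-156201068, minus strand) 3 overlapping ones, Cxcl10 (chr5:92348840-92349139, minus strand) 1, and Ifit1 (chr19:34640639-34640938, plus strand) 2.
Ifit3: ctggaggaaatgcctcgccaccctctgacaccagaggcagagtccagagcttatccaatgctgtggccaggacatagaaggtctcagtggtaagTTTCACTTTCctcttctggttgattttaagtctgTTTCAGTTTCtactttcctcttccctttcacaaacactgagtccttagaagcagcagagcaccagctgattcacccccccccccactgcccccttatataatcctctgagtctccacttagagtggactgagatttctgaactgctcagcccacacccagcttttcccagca
Isg15: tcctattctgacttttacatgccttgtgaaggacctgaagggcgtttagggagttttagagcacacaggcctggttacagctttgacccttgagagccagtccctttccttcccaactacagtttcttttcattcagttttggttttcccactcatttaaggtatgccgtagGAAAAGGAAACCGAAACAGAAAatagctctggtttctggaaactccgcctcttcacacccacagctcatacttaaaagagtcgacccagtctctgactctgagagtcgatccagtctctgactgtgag
Cxcl10: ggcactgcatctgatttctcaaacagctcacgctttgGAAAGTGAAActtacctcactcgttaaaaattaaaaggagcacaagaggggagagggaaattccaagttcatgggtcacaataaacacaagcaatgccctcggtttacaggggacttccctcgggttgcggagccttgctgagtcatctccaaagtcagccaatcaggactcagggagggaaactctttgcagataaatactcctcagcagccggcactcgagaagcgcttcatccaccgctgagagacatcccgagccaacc
Ifit1: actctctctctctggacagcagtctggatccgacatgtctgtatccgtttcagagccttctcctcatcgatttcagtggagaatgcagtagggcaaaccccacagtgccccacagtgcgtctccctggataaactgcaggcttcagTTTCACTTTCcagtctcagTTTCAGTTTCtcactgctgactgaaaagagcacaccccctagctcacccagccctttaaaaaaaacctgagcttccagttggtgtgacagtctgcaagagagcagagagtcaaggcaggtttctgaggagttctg
Of the 10 interferon genes called higher that had a promoter in the table, 9 held a match, and of the 28 listed genes with a promoter 18 did. Among all 27025 promoters 3.99% held one. Oasl2, called higher at 1.92 times, held none in this window. A match is a description of the letters and not a bound site.

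Immediate early genes, transcription factors and signal inhibitors switched on within minutes by stimulation, stood above a ratio of 1 in QS over PF throughout the measured list. Of 23 measured, 13 were called higher and none lower, all 23 had a ratio above 1, and the median log2 ratio was 0.61, against -0.22 for HS over PF, where none was called and 21 lay below 1. With the barcodes that an exclusion gene had left out taken in, the QS over PF median was 0.22 and 2 of 25 were called higher. Arc, a neuronal activity gene of the synapse (chr15:74669083-74672570), had 27.6 CPM in HS, 82.1 CPM in QS and 35.9 CPM in PF, a QS over PF ratio of 2.29 (2.01 to 2.61). Nr4a1, an orphan nuclear receptor, had 160, 325 and 169 CPM in HS, QS and PF, a ratio of 1.92. Fos, a subunit of the AP-1 factor (chr12:85473890-85477273), had 1935 CPM in HS, 3458 CPM in QS and 2291 CPM in PF, a ratio of 1.51. Atf3, a stress-inducible factor, had 539, 1073 and 694 CPM in HS, QS and PF. All 4 genes stood highest in QS, then in PF, then in HS. Btg2, an antiproliferative gene, kept that order at 677, 1223 and 768 CPM in HS, QS and PF, and Jun, the partner of Fos, was not called, at 1315, 2323 and 1576 CPM.

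Immediate early genes are also known to respond to tissue dissociation, and the part of dissociation was not tested. In endothelial cells of the same libraries, thinned to 3000 UMIs, the list summed to a mean of 111 UMIs per cell in HS, 112 in QS and 118 in PF. In members it was 25.3 in HS, 46.0 in QS and 30.5 in PF, so the endothelial level was well above that of the members in every library.

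Genes of cholesterol synthesis and uptake, most of which follow the SREBP2 factor, mostly stood above a ratio of 1 in QS over PF. Of 16 measured, 5 were called higher and none lower, and 13 had a ratio above 1, with a median log2 ratio of 0.44, against -0.09 for HS over PF, where none was called. With the same barcodes taken in, the QS over PF median was 0.36 and 3 of 15 were called higher. Idi1, an enzyme of the isoprenoid step (chr13:8885501-8892451), had 25.6 CPM in HS, 54.2 CPM in QS and 26.7 CPM in PF, a QS over PF ratio of 2.03 (1.74 to 2.37). Hmgcs1, an early enzyme of sterol synthesis (chr13:119690379-119708260), had 88.0, 184 and 116 CPM in HS, QS and PF, a ratio of 1.58 (1.47 to 1.71). The list also holds the cholesterol exporters Abca1 and Abcg1, whose QS over PF ratios were 0.956 and 0.938. Abca1 had 147 CPM in HS, 131 CPM in QS and 137 CPM in PF.

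The Hmgcs1 promoter is shown because it held the match of 1 of 13 cholesterol genes to the sterol regulatory element, TCACNCCAC on either strand, here in capitals. It lies at chr13:119690101-119690400 on the plus strand of GRCm38.p6, from RefSeq. Of all promoters 1.44% held such a match. Among inner dynein arm genes 2 of 11 promoters held such a match too. The motif was added after the values had been seen, as was the CArG box of serum response factor, found in 1 of 23 immediate early promoters and in 1.81% of all.
Hmgcs1: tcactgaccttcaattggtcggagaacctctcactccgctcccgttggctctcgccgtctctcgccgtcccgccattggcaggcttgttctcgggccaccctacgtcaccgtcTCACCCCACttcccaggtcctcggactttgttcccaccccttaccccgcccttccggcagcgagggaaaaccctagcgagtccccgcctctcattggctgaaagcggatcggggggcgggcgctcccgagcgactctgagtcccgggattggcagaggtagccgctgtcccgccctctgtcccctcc

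**Figure D1:**
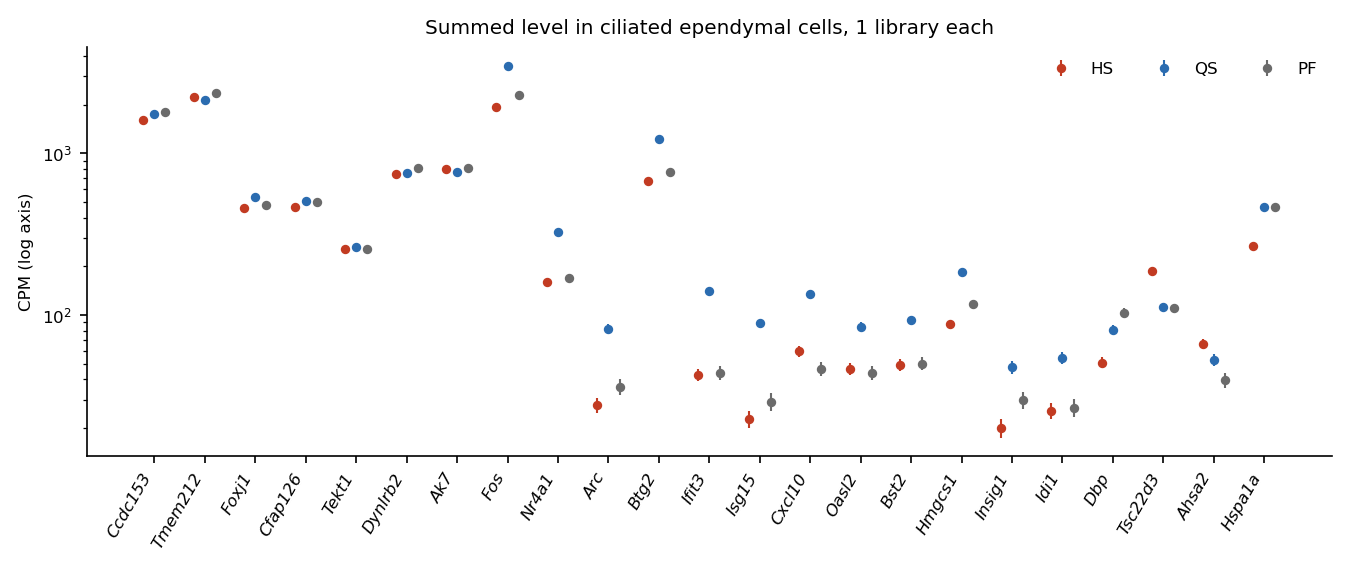
Level of 23 genes in ciliated ependymal cells of HS, QS and PF, in CPM of the summed UMIs on a log axis, with bars for exact Poisson 95% intervals (counting error only). Ifit3 stands at 140 CPM in QS, against 42.7 CPM in HS and 43.8 CPM in PF. Foxj1 and Tekt1 helped to choose the cells, so their levels are a description, and neither was called in any comparison.

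Heat shock and chaperone genes, which fold or refold proteins, had a median log2 ratio of 0.25 for QS over PF, with 21 of 26 above 1 and 1 called, Hspb8, a small heat shock protein, at 31.6 CPM in HS, 41.7 CPM in QS and 24.9 CPM in PF. In HS over PF 1 of 26 was called higher and 1 lower, with a median of 0.08. Hspa1a, an inducible HSP70, had 267 CPM in HS, 465 CPM in QS and 468 CPM in PF, an HS over PF ratio of 0.571 (0.545 to 0.599). Hspa1b, its near-identical neighbour, had 376, 738 and 539 CPM in HS, QS and PF and was not called. Ahsa2, an HSP90 co-chaperone gene, had 65.9 CPM in HS, 52.7 CPM in QS and 39.5 CPM in PF, a ratio of 1.67 (1.47 to 1.90). Hsp90ab1, a constitutive HSP90, stood at 3098 CPM in HS, 2973 CPM in QS and 2204 CPM in PF and was not called, at 1.41. The heat shock element, TTCNNGAANNTTC on either strand, was found in 4 of 21 promoters of the list and in 0.662% of all promoters.

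Genes of the glucocorticoid response gave 1 called higher of 18 in HS over PF, with a median of 0.04, and 1 of 17 in QS over PF, with a median of 0.13. Tsc22d3, which encodes the glucocorticoid-induced leucine zipper, had 187 CPM in HS, 112 CPM in QS and 110 CPM in PF, an HS over PF ratio of 1.70 (1.58 to 1.84). Sgk1, another target of the receptor, had 42.4, 42.2 and 49.3 CPM in HS, QS and PF. Below the level minimum, Zbtb16, a zinc finger factor, had 16.5 CPM in HS, 5.61 CPM in QS and 6.46 CPM in PF, and Fkbp5, a co-chaperone of the receptor, 11.8, 11.4 and 5.89 CPM. Dusp1, a phosphatase gene that immediate early signals also raise, had 718 CPM in HS, 1248 CPM in QS and 805 CPM in PF, a QS over PF ratio of 1.55.

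Among clock genes, Dbp, an output factor of the clock, had 50.8 CPM in HS, 81.3 CPM in QS and 103 CPM in PF, and its HS over PF ratio of 0.493 (0.444 to 0.547) was the lowest of those named by rank in that comparison. Npas2, a partner of BMAL1, had 31.0, 14.6 and 17.2 CPM in HS, QS and PF, a ratio of 1.80 (1.48 to 2.19). The list as a whole had 1 higher and 1 lower of 18 and a median of -0.00. The E-box CACGTG, the site of the clock's activators, was found in 5 of 17 promoters of the list and in 8.09% of all. Since the time of day is unknown, it and the exposure cannot be told apart. In tanycytes the HS over PF ratio of Dbp was 0.364, in astrocytes 0.392, in endothelial cells 0.449 and in microglia 0.926.

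**Figure D2:**
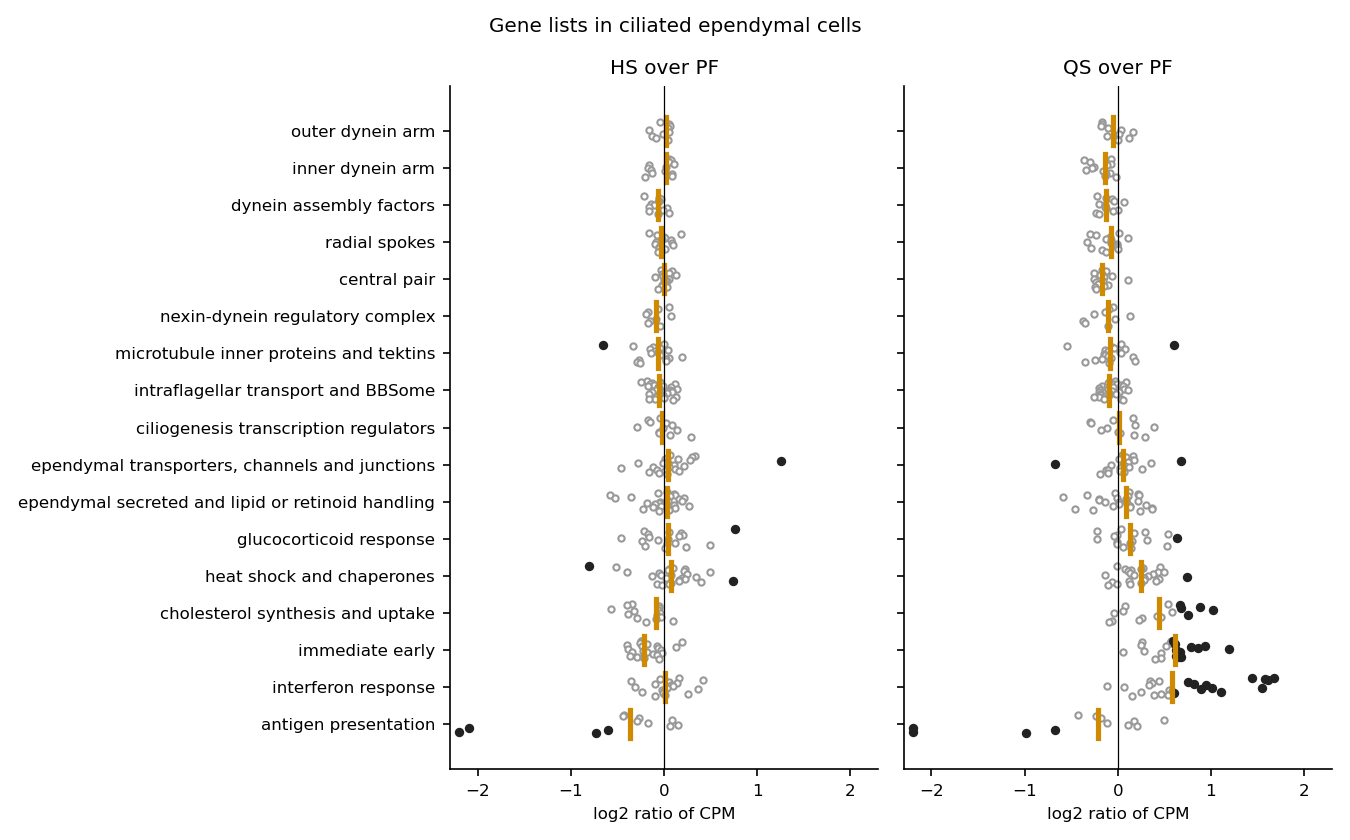
Log2 ratio of CPM of the members of each gene list in ciliated ependymal cells, with HS over PF and QS over PF in separate panels; filled points are called, open points are not, gold bars are list medians, and values past 2.2 either way are drawn at 2.2. The medians of interferon (0.58), immediate early (0.61) and cholesterol (0.44) genes lie above 0 in QS over PF.

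Among antigen presentation genes, many of which are high in immune cells, a few were called lower in both comparisons with PF. Cd74, the class II invariant chain, had 11.96 CPM in HS, 8.61 CPM in QS and 55.3 CPM in PF, and H2-Aa, a class II chain, 4.86, 2.81 and 20.7 CPM. In each comparison 4 of 12 measured genes were called lower and none higher, the others being H2-Ab1, a class II chain, and Ctss, a protease. Of the 12, 3 stood above a ratio of 1 in HS over PF and 4 in QS over PF, among them H2-T23, a non-classical class I gene, at 28.0 CPM in HS, 37.3 CPM in QS and 26.4 CPM in PF. Microglial markers moved with them, at 247 CPM in HS, 223 CPM in QS and 350 CPM in PF when summed, with 2 of 5 measured called lower in HS over PF and 3 of 5 in QS over PF. Endothelial markers summed to 235, 160 and 282 CPM in HS, QS and PF, or 1.28%, 0.763% and 1.51% of the level in endothelial cells. All 6 measured were called lower in QS over PF, with a median of -0.81, among them the exclusion gene Cldn5. Oligodendrocyte markers summed to 191 CPM in HS, 220 CPM in QS and 286 CPM in PF. The sums include the exclusion genes Cldn5, P2ry12 and Mog, whose levels in members the rule itself limited. PF members thus held more marker RNA of these 3 classes than members of HS or QS, and its part in these results was not tested. With free RNA at 5% subtracted, the antigen presentation median of QS over PF was 0.055 in place of -0.21.

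The genes with the largest HS over PF ratios rested on few cells. S100a8 and S100a9, genes of neutrophils, had 134 and 139 CPM in HS, 0.581 and 0.678 CPM in QS, and 1.25 and 2.38 CPM in PF. In HS 5 cells held 96.6% of the UMIs of each. Chga and Chgb, secretory granule proteins of endocrine and neuronal cells, had 120 and 49.6 CPM in HS, 0.0968 and 0.581 CPM in QS, and 15.9 and 4.53 CPM in PF, with 94.7% and 94.9% of the HS UMIs in 5 cells. Cga, a pituitary hormone subunit, had 78.9 CPM in HS, was at 0 in QS and had 10.3 CPM in PF. With the 5 cells with most of each gene's UMIs left out of each library, the HS over PF ratio was 0.582 for Chga and 0.716 for Chgb, so their direction rested on those cells.

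Of the 53 genes called higher in HS over PF, 35 had under 20% of the level of another class, 9 more had at least 50% of their UMIs in 5 cells, and 9 were in neither kind. Of the 73 called higher in QS over PF, 6 belonged to the gene kinds left out of naming, 18 had under 20% of another class, none rested on 5 cells and 49 were left. Of the 37 genes called lower in HS over PF 16 belonged to none of these kinds, and of the 59 called lower in QS over PF 17 did.

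Genes lower in HS than in PF by rank included members of the ciliated cells' own repertoire. Ttc6 had 16.3 CPM in HS, 17.0 CPM in QS and 26.2 CPM in PF, a ratio of 0.623, and was 30-fold above the other classes. Glipr1l1 had 14.8, 15.9 and 24.4 CPM in HS, QS and PF. In QS over PF the ranked higher genes outside the lists included Lsmem1 (10.1 CPM in HS, 22.5 CPM in QS and 10.1 CPM in PF) and Tnfrsf12a, the TWEAK receptor, at 10.5, 30.1 and 14.6 CPM, while Opcml, a neural adhesion gene, was lower at 24.4, 14.7 and 26.6 CPM in HS, QS and PF.

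Single genes of other lists were called as well. Aldoc, an aldolase of glycolysis, had 179 CPM in HS, 143 CPM in QS and 99.7 CPM in PF, an HS over PF ratio of 1.79. Its pooled level was 0.105 times that of the highest other class, and astrocyte markers stood at 8.74% of their level in astrocytes in HS, 8.43% in QS and 8.34% in PF. Their part in the Aldoc value was not tested. The cold-inducible RNA-binding genes Cirbp and Rbm3 were not called, with HS over PF ratios of 0.752 and 0.888. Cirbp had 83.1 CPM in HS, 118 CPM in QS and 110 CPM in PF. Among cytokines and NF-kB genes, Cxcl2, a neutrophil chemokine, had 14.3, 3.098 and 48.4 CPM in HS, QS and PF and was called lower in both comparisons with PF. Its 5 highest cells held 73.5% of its UMIs in PF. Mitochondrially encoded genes had medians of -0.02 for HS over PF and -0.12 for QS over PF, and mt-Nd3, a complex I subunit, had 353 CPM in HS, 216 CPM in QS and 326 CPM in PF, a QS over PF ratio of 0.664.

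In QS over HS the immediate early, cholesterol and interferon lists gave higher calls and no lower ones. Of 23 immediate early genes 18 were called higher, with a median of 0.76, and Arc was at 2.98 times the HS level. Of 15 cholesterol genes 8 were called higher, with a median of 0.63, led by Insig1, a sterol sensor partner, at 2.38 times. Interferon genes gave 13 of 25, with a median of 0.61. Of 18 genes of the glucocorticoid list, 3 were called higher (Dusp1 at 1.74 times, Zfp36 at 1.67 and Cdkn1a at 1.64) and 2 lower, with a median of 0.07. The lower ones were Tsc22d3, at 0.601, and Lcn2, an acute-phase gene, which stood at 3.001 CPM in QS, against 20.5 CPM in HS, a ratio of 0.147. The pooled level of Lcn2 was 0.0288 times that of the highest other class.

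Between libraries the interferon list had close medians per cell, while QS had more cells with many of its UMIs. After thinning each cell to 3000 UMIs, which left 921, 810 and 794 members in HS, QS and PF, the interferon list summed to a median of 4, 5 and 5 UMIs. The 90th percentile was 10 UMIs in HS, 18 in QS and 10 in PF. Cells with at least 20 UMIs numbered 9 in HS (0.977%, 0.448 to 1.85), 66 in QS (8.15%, 6.36 to 10.3) and 8 in PF (1.01%, 0.436 to 1.98). The highest cell had 63 UMIs in HS, 41 in QS and 45 in PF. The immediate early list behaved otherwise, with its median at 16 UMIs in HS, 42 in QS and 22 in PF. Cells with at least 50 UMIs of it were 15.6% of members in HS, 42.8% in QS and 20.8% in PF, and those under 10 UMIs 29.5%, 11.2% and 18.6%.

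**Figure D3:**
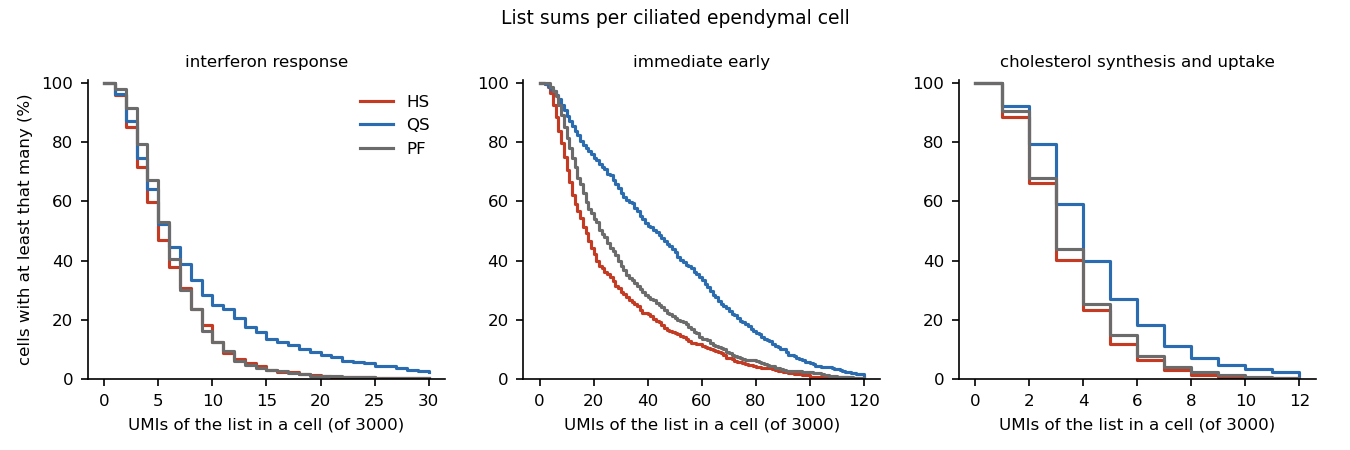
Share of ciliated ependymal cells (percent) with at least the given number of UMIs of the interferon, immediate early and cholesterol lists per cell, each cell thinned to 3000 UMIs, with 1 line each for HS, QS and PF. At 20 UMIs of the interferon list the lines stand at 0.977% of cells in HS, 8.15% in QS and 1.01% in PF.

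Over cells, Ifit3 and Isg15 had Spearman correlations of 0.134 in HS, 0.342 in QS and 0.0571 in PF, and the interferon and immediate early sums 0.181, 0.0798 and 0.0590. Correlations of Cxcl10 were lower in QS, at 0.0598 with Ifit3 and 0.0806 with Isg15. In HS they were 0.0423 and 0.0257, and in PF -0.0108 and 0.0661. The immediate early and heat shock sums had 0.257 in HS, 0.524 in QS and 0.463 in PF. These are descriptions over cells that share a library and its depth. By the lowest of a gene's 3 library values of variance over mean after thinning, the 10 most variable genes were Malat1, Apoe, Cst3, Fos, Dbi, Jun, Nnat, Ptn, Trpm3 and Cxcl10. For Ptn, a growth factor, the 10% of cells with most of its UMIs held 79.8% of them in HS, 78.7% in QS and 74.1% in PF, so it was high in few cells of every library.

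The QS over PF medians of the lists were not the same in other classes. For interferon genes the median was 0.58 in ciliated cells and 0.40 in tanycytes, against -0.40 in astrocytes, -0.39 in endothelial cells, -0.34 in microglia and -0.32 in oligodendrocytes. For immediate early genes it was 0.61 in ciliated cells and 0.93 in tanycytes, against -0.60 in astrocytes, -0.10 in endothelial cells, 0.12 in microglia and -0.69 in oligodendrocytes. For cholesterol genes it was 0.44 in ciliated cells, against 0.13 in tanycytes, 0.26 in oligodendrocytes, 0.02 in endothelial cells, -0.09 in microglia and -0.12 in astrocytes. In tanycytes HS stood above PF as well, with HS over PF medians of 0.69 for interferon and 0.77 for immediate early genes. In ciliated cells these were 0.01 and -0.22. The tanycyte class of PF had 68 cells. Of all 6572 genes measured in tanycytes for QS over PF, 6.21% were called higher and 4.72% lower. The difference between classes was not tested, since each class has 1 library a group. Ifit3 had a QS over PF ratio of 3.20 in ciliated cells, 2.16 in tanycytes, 0.758 in endothelial cells and 0.575 in oligodendrocytes.

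**Figure D4:**
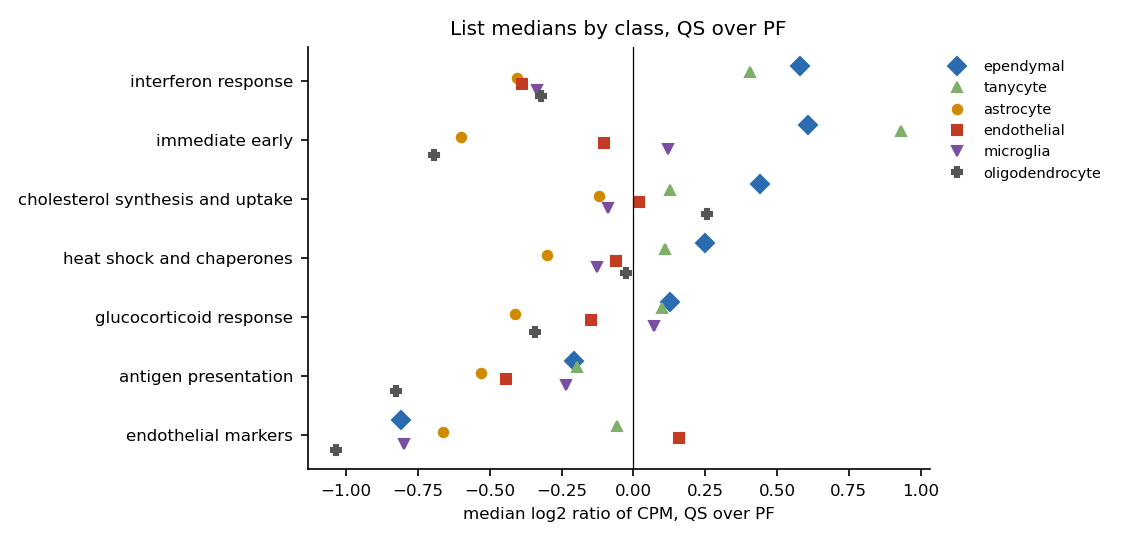
Median log2 ratio of CPM for QS over PF of gene lists in ciliated ependymal cells and in 5 other classes of the same libraries. Interferon genes stand at 0.58 in ciliated cells and 0.40 in tanycytes and between -0.40 and -0.32 in the other 4 classes.

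In ciliated cells the QS over PF ratio was lower for longer genes. Genes spanning under 5 kb had a median log2 ratio of 0.04 (832 genes) and those over 200 kb a median of -0.16 (646 genes), a Spearman correlation of -0.324 over 8217 genes, which are not independent replicates. For HS over PF the correlation was 0.150. That of QS over PF was -0.153 in tanycytes and -0.126 in endothelial cells, the same sign as in ciliated cells. It was 0.554 in astrocytes, 0.173 in microglia and 0.222 in oligodendrocytes, so the trend had no common sign across classes. The inner dynein arm genes, with a median span of 128 kb, and the central pair genes, with 82.9 kb, are longer than the interferon genes (12.7 kb) or the immediate early genes (5.16 kb). The part of gene length in the list medians was not tested.

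**Figure D5:**
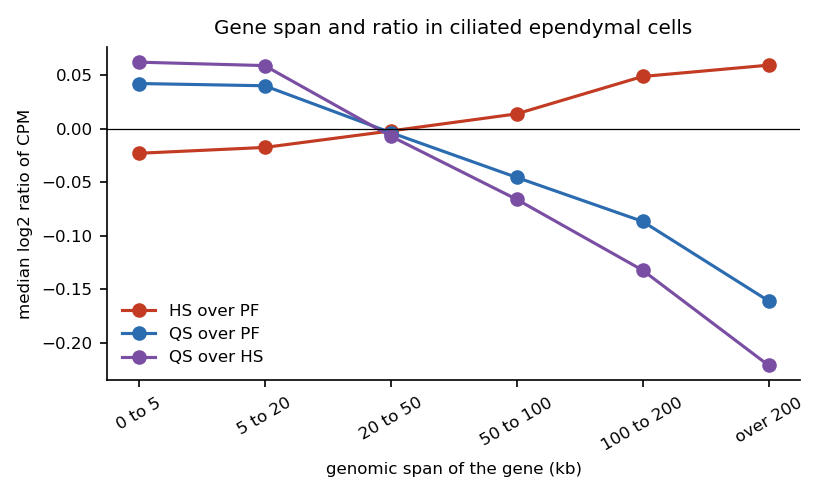
Median log2 ratio of CPM in ciliated ependymal cells against the span of the gene in kb, for HS over PF, QS over PF and QS over HS. In QS over PF the median is 0.04 under 5 kb and -0.16 over 200 kb.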

How the data were processed

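Per the labels, cells came from hypothalami digested with collagenase II, and libraries used version 3 of the 10x Genomics 3' chemistry. What the authors deposited are raw UMI counts, a value for each of 32285 genes in each barcode. Cell Ranger and the mm10 genome were used, with versions of 5.0.0 for Cell Ranger and 3.1.2 for Seurat in the submitters' processing notes, while the file headers give Cell Ranger 7.0.1. The sources used here do not say whether intronic reads were counted.

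Members were chosen by the UMIs of 13 genes, and all values are sums over members in CPM of those sums. Every group has 1 library, so no test was made, and cells are not replicates. Intervals for ratios are exact conditional binomial, for shares exact Clopper-Pearson and for levels exact Poisson. Other classes were taken by at least 4 of their markers, with fewer than 4 of the 7 rule genes detected. Barcodes that met more than 1 class were left out. Members were thinned to 3000 UMIs where cells were compared. Scrublet in Scanpy 1.11.5 called doublets (0.8% expected for each 1000 barcodes) and marked 5.40% of barcodes in HS, 6.23% in QS and 6.39% in PF. None was removed. Scripts ran in Python 3.11.15 with pandas 2.3.3, NumPy 2.4.6, AnnData 0.12.19, matplotlib 3.10.9 and SciPy 1.17.1, and the scripts were tested on simulated data.

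The members and the gene lists were chosen with earlier results of these data known. Named are the genes of the rule, the 20 most specific genes, up to 8 highest and 8 lowest called ratios per comparison among genes with at least 20% of the level of the highest other class, up to 4 called members of each list with values of others where a list is described, and the 10 most variable genes. Mitochondrial, ribosomal protein, haemoglobin, Gm and Rik genes were left out of the ranking. Some genes that this rule names are not reported here. Other genes named were chosen after their values were seen. The sterol regulatory element and the CArG box were added after the values had been seen. Promoters are from RefSeq (GRCm38.p6), and 1-based gene coordinates from GENCODE M21 (mm10). Alternatives changed the rule, the depth, the scaling, the minimum level and the treatment of free RNA. Leaving out the 5 highest cells of each gene and taking in barcodes with an exclusion gene were added after seeing the data.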

Additional observations from a re-analysis of the deposited data

Results flagged for a closer look

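In 6 cases the median log2 ratio of a gene list in ciliated ependymal cells and in another class of the same libraries lay at least 0.3 from 0 in opposite directions, with at least 10 members measured in each. The differences were not tested, since each group has 1 library. For interferon genes in QS over PF, the ciliated median of 0.58 stood against -0.40 in astrocytes (15 measured, none higher and 3 lower), -0.39 in endothelial cells (36 measured, none higher and 3 lower) and -0.34 in microglia (33 measured, 6 higher and 9 lower). For immediate early genes in QS over PF, the ciliated median of 0.61 stood against -0.60 in astrocytes (20 measured, none higher and 11 lower) and -0.69 in oligodendrocytes (22 measured, none higher and 12 lower). In QS over HS the immediate early median was 0.76 in ciliated cells and -0.50 in astrocytes (19 measured, none higher and 7 lower).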

How the results depend on the processing

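No paired analysis was possible because each group has 1 library, and no replicate could be left out. The genes called numbered 90 in HS over PF, 132 in QS over PF and 193 in QS over HS. For HS over PF the count was 170 with the exclusion genes at 1 UMI, 234 with members thinned to 3000 UMIs, 54 without the 5 highest cells of each gene, 23 with a minimum of 50 CPM and 575 with none. For QS over PF it was 239 with the exclusion genes at 1 UMI, 325 thinned, 50 with 50 CPM and 661 with no minimum, and for QS over HS 404 thinned, 86 with 50 CPM and 800 with none. The share of members in HS, QS and PF was 4.03%, 4.65% and 2.88% with the exclusion genes at 1 UMI, 10.6%, 9.48% and 9.25% with excluded barcodes taken in, and 10.2%, 9.25% and 9.18% with every barcode thinned. The median log2 ratio for QS over PF ran from 0.33 to 0.90 for interferon, 0.22 to 0.71 for immediate early and 0.36 to 0.54 for cholesterol genes under the alternatives run, against 0.58, 0.61 and 0.44 as reported. Each lowest value came with excluded barcodes taken in, where 2 immediate early genes were called higher in place of 13. Of the list medians 3 reversed. Antigen presentation in QS over PF was 0.055 with free RNA at 5% subtracted, and with excluded barcodes taken in cytokines in QS over HS were -0.11 and microglia markers 0.18. Ratios reversed in HS over PF for genes that rested on few cells. With excluded barcodes taken in they were 0.615 for Cck, 0.526 for Cga, 0.433 for Chga, 0.650 for Chgb, 0.382 for Resp18 and 0.591 for Scg2. With the exclusion genes at 1 UMI they were 0.801 for Cck, 0.142 for Ccl5, 0.906 for Cga, 0.492 for Chga, 0.677 for Chgb, 0.532 for Resp18 and 0.769 for Scg2, and Ccl5 in QS over HS was 3.06. Without the 5 highest cells they were 0.827 for Cck, 0.582 for Chga, 0.716 for Chgb and 0.595 for Resp18, and Ccl5 in QS over HS was 1.53. With at least 5 of the 7 genes detected they were 0.840 for Cck and 0.868 for Resp18, and with 2000 to 30000 UMIs 0.818 and 0.984. Ccl4 in QS over HS was 0.980 with free RNA subtracted. The cause of these shifts was not tested.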
